A study of Mus musculus with 3 samples.

Results

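The genes described here are the 9 that build and feed MHC class I molecules on the cell surface (B2m, H2-K1, H2-D1, Tap1, Tap2, Tapbp, Psmb8, Psmb9 and Nlrc5), chosen by name out of 32285 genes in the count tables. All 9 were found in the tables and all 9 passed the filter on low counts in each comparison of cell classes. They were followed through mouse back skin by 10X Chromium 3ʹ single-cell RNA sequencing, in which every captured transcript carries a unique molecular identifier (UMI). There was 1 library for each of 3 ages, P38 (postnatal day 38), 6 months and 12 months, each labelled wild type and untreated. The methods give the P38 mice as male with follicles in catagen, the 6 months mice as female and mostly in anagen, and the 12 months mice as male with follicles in telogen and anagen. It also describes epithelial cells sorted by flow cytometry on a histone H2B-GFP fusion under the Krt14 promoter, so every group carried this transgene. Its methods set epidermal and hair follicle cells at a fixed ratio. They also name GFP-negative dermal cells, for experiments based on K14-Cre. The labels describe dissociated whole back skin. Strain and number of mice per library were not given in the sources used here. Age, sex, hair cycle stage, library and depth changed together and cannot be told apart.

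MHC class I molecules show peptides from inside the cell to CD8 T cells. Proteasomes cut cytosolic proteins, the TAP transporter carries the peptides into the endoplasmic reticulum, tapasin helps to load them, and the heavy chain leaves for the surface only when bound to its light chain. Hair follicles are known as a site of immune privilege, because class I is low in the lower follicle during growth.

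B2m codes for the light chain, beta-2-microglobulin, and lies on chr2:122147686-122153083 of GRCm38 (GENCODE vM21). Nlrc5, the transactivator of class I genes, lies on chr8:94434356-94527272. The other 7 genes are in the MHC of chromosome 17, in the order Tapbp (chr17:33915899-33929292), H2-K1 (chr17:33996017-34000347), Psmb9 (chr17:34181987-34187764), Tap1 (chr17:34187553-34197225), Psmb8 (chr17:34197721-34201454), Tap2 (chr17:34203527-34216321) and H2-D1 (chr17:35262730-35267499). Psmb9 and Tap1 are transcribed away from each other and their annotated starts overlap.

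Promoter windows of 250 bases upstream of the RefSeq start (GRCm38.p6) were found for 7 of the 9 genes, and those of B2m and H2-K1 are shown because these genes had the same order over the epithelial classes. All 250 bases of the H2-D1, Tap1, Tapbp, Psmb8 and Psmb9 windows lay in exons annotated by GENCODE, against 1 base for B2m and 0 for H2-K1. Those windows are thus upstream of the RefSeq start but not of every annotated transcript. Capitals mark matches on either strand to 4 motifs. These were an interferon response element (with any 2 bases in its middle), a kappaB site, a Y box (ATTGG) and the core of an X2 box (TGACGC). In the B2m window the capitals mark the interferon element and then the Y box, and in the H2-K1 window the kappaB site, the X2 core and the Y box, none of which overlap.
B2m chr2:122147437-122147686 (+): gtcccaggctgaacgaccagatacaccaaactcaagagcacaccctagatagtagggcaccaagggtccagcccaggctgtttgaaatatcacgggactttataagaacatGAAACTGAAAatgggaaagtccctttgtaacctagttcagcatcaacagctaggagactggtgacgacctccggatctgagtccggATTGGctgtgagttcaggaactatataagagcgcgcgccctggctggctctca
H2-K1 chr17:34000348-34000597 (-): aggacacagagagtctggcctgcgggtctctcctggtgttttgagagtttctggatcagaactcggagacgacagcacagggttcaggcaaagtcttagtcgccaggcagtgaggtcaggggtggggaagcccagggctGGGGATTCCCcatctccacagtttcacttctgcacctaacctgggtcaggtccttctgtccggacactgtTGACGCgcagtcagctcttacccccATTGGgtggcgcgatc

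The H2-D1 window held the same kappaB, X2 and Y letters. To compare both heavy chain genes, a stretch of 30 bases around the kappaB match and the 30 bases from the X2 core to the Y box are given for each.
H2-K1, kappaB, chr17:34000439-34000468 (-): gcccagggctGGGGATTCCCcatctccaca
H2-D1, kappaB, chr17:35262913-35262942 (+): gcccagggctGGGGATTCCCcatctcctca
H2-K1, X2 to Y, chr17:34000359-34000388 (-): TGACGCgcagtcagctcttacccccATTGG
H2-D1, X2 to Y, chr17:35262993-35263022 (+): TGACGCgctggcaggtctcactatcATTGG
The kappaB stretch was the same at 29 of 30 positions and the X2 to Y stretch at 23 of 30. Among 32851 promoter windows of this length, 0.0852% held the kappaB letters, 6.12% the X2 core, 33.8% the Y box and 2.98% the interferon element. The exact letters of the interferon element were found in B2m alone among the 7 windows. The kappaB and X2 letters were in H2-K1 and H2-D1 alone, and a Y box in 6 of 7, all but Psmb8. The Tap1 and Psmb9 windows overlap on opposite strands, and the Y box counted for each is the same site. A match is a match of letters in this window and not a mapped site. A window without a match may still hold a variant of the motif, which was not searched for.

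The filter stated in the methods (more than 200 and fewer than 5000 genes, under 15% mitochondrial UMIs) kept 2109, 3502 and 3240 cells at P38, 6 months and 12 months, with a median of 16170, 1019 and 11439 UMIs. At 6 months 1839 of the kept cells held fewer than 1000 genes, and the filter kept more cells there than the study states. Cells entered a class by a score over marker genes, none of them a class I, immunoproteasome or interferon-induced gene, and 4485 of 8851 kept cells did, 745 of the kept cells lying close to a limit of the gate. A class is a range of this score and not a proven cell type. Bulge cells numbered 246, 74 and 95 in order of age, inner bulge cells 110, 28 and 22, hair germ cells 101, 103 and 104, basal epidermal cells 431, 83 and 139, suprabasal cells 153, 158 and 280, and upper follicle cells 130, 122 and 115. Fibroblasts (100 and 231) and immune cells (115 and 119) reached 20 cells at 6 and 12 months only, and inner root sheath cells (304) at 6 months only. The 6 and 12 months libraries shared 81 cell barcodes, 2.31% and 2.50% of their cells, and P38 shared 3 and 1 with them. Sebaceous gland cells held 34 and 37 cells with a shared barcode, so no sebaceous value is given. The sebaceous sum of each library still entered the 22 epithelial class sums of the fit and the correlations below, as did the inner root sheath sum of 6 months. Doublets were not called, but a cell that scored for more than one class within the margin of the gate was left out. Free RNA was not subtracted. Levels are given as CPM, in which the UMIs of a gene were added up by class and library and divided by all UMIs of that sum, times 1000000.

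The order of the classes differed between genes, with B2m and H2-K1 sharing one order and H2-D1, Psmb8 and Psmb9 another. Averaged over the 3 libraries, hair germ cells held the lowest level of 6 of the 9 genes among the 6 epithelial classes (B2m, H2-K1, H2-D1, Psmb8, Psmb9 and Nlrc5). The highest level was in the upper follicle for B2m, H2-K1, Tap1, Tap2, Tapbp and Nlrc5, and in the basal epidermis for H2-D1, Psmb8 and Psmb9. The highest class mean was 8.18 times the lowest for Psmb8, 6.11 times for Nlrc5, 4.62 times for B2m and 2.22 times for Tap1.

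**Figure D1:**
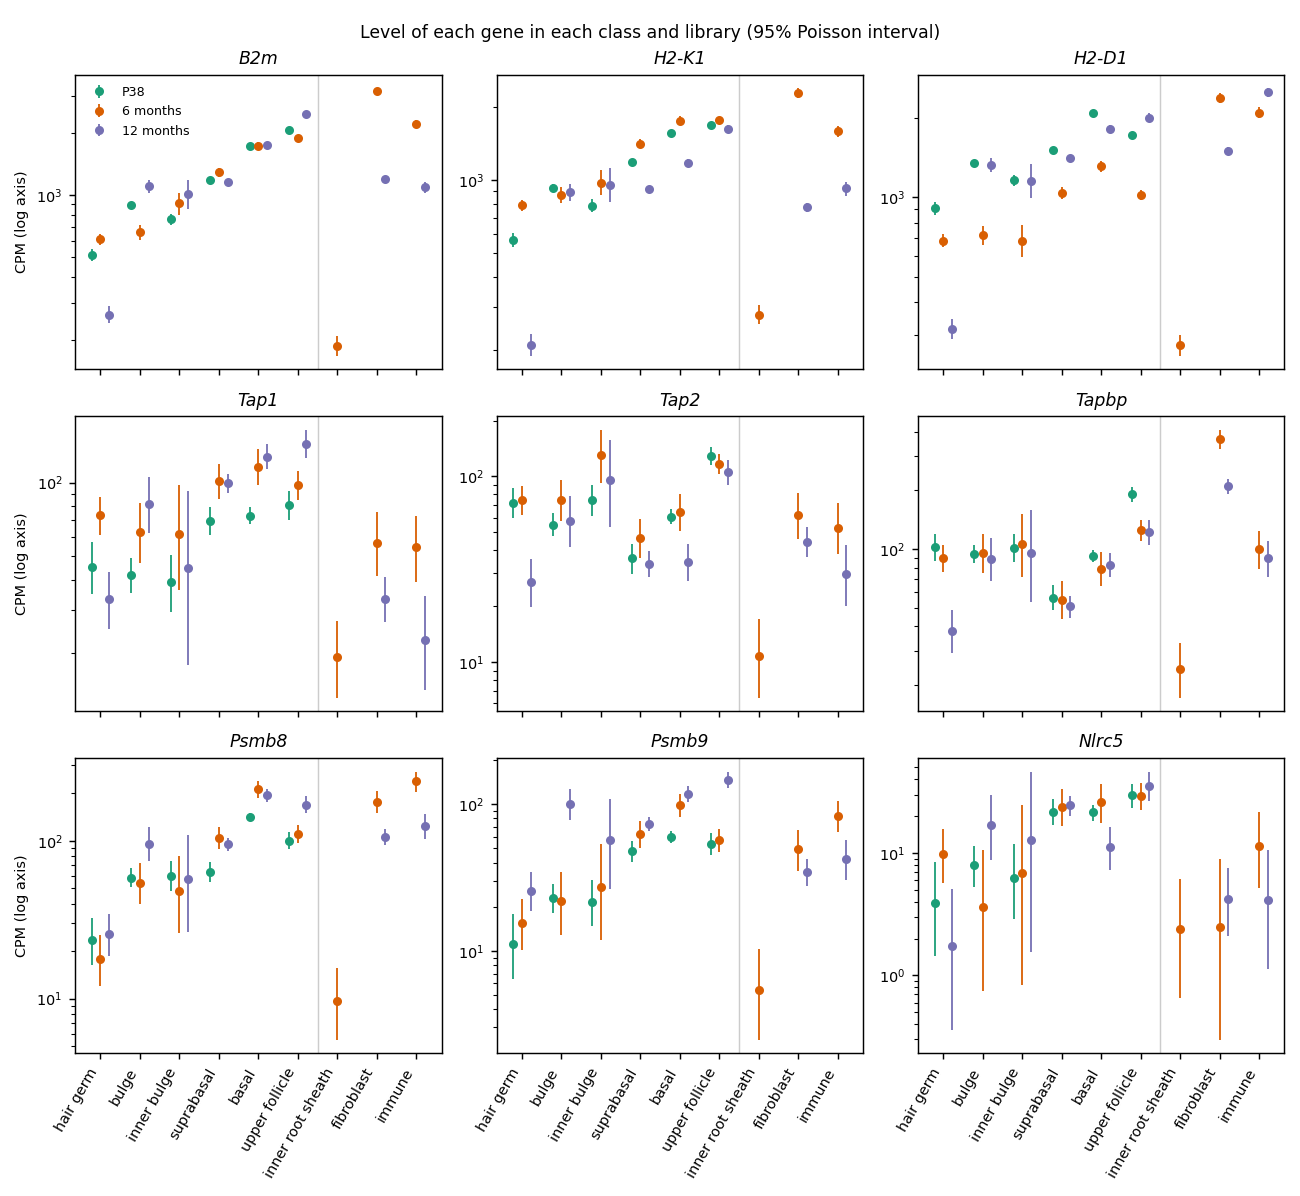
CPM (log axis) of each of the 9 genes in 9 classes, with 1 point per library and exact Poisson 95% intervals, which cover counting error only. For B2m the hair germ points lie between 264 and 612 CPM and the upper follicle points between 1892 and 2466 CPM. Classes right of the grey line (inner root sheath, fibroblast, immune) have points in 1 or 2 libraries only.

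In CPM the light chain was nearly the same in the basal epidermis of each library, and it was low in the lower follicle. The fit described below scaled the basal sums by unequal factors (0.899, 1.01 and 0.887 in order of age), so the evenness holds for CPM. B2m stood at 1722 CPM at P38, 1725 at 6 months and 1733 at 12 months in basal cells (1727 ± 5.63, SD, n = 3 libraries). In bulge cells, which hold the follicle stem cells, it stood at 894, 661 and 1101 CPM in the same order, and no bulge value reached a basal value. Inner bulge cells, the Fgf18 and Krt6a layer inside the bulge, gave 761, 910.0 and 1008 CPM, overlapping with the bulge. The hair germ, the Lgr5 cells below the bulge, gave 513, 612 and 264 CPM, below every bulge value. Suprabasal cells lay between these classes and the basal cells at 1176, 1284 and 1151 CPM. In 1 edgeR fit over 22 epithelial class sums with the library as a block, B2m fell 2.30-fold from basal to bulge (log2 fold -1.20 ± 0.25 SE, adjusted p = 0.00300) and 4.35-fold from basal to hair germ (log2 fold -2.12 ± 0.25, adjusted p = 3.11e-05).

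Both heavy chain genes followed. H2-K1 was 927, 868 and 891 CPM in bulge cells in order of age, against 1560.5, 1756 and 1175 CPM in basal cells. H2-D1 was 1350.5, 718 and 1328 CPM in bulge cells and 2085, 1312 and 1821 CPM in basal cells. H2-K1 groups did not overlap, whereas the highest H2-D1 value of the bulge was above the lowest basal one, although within each library the bulge was lower. H2-K1 fell by 0.94 ± 0.26 and H2-D1 by 0.88 ± 0.28 on the log2 scale in the bulge (edgeR adjusted p = 0.0216 and 0.0441). In hair germ cells H2-K1 was at 567, 788 and 210.5 CPM and H2-D1 at 907, 685 and 316 CPM, each lower than its basal value in every library. The log2 folds of hair germ over basal cells were -1.81 ± 0.27 for H2-K1 and -1.65 ± 0.29 for H2-D1 (adjusted p = 0.000196 and 0.000857). Near-identical class I genes share reads with H2-K1 and H2-D1, so their counts are uncertain where the counting could split or drop such reads.

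Psmb8 had the widest range of class means of the 9 genes, and Psmb9 came after Nlrc5. Psmb8 and Psmb9 code for catalytic subunits that replace constitutive ones in the proteasome and favour peptides that fit class I. Psmb8 was 23.4, 17.8 and 25.7 CPM in hair germ cells (36, 31 and 44 UMIs) in order of age, and 141, 212 and 195 CPM in basal cells. The basal and hair germ values did not overlap. The fit put the difference at 9.36-fold (log2 fold -3.23 ± 0.36, adjusted p = 1.73e-05). In the bulge Psmb8 was 58.5, 54.3 and 95.9 CPM, below all basal values, a 3.16-fold fall (log2 fold -1.66 ± 0.34, adjusted p = 0.00291). Psmb9 was 11.1, 15.5 and 25.7 CPM in hair germ cells and 59.8, 98.5 and 118 CPM in basal cells, a 6.11-fold fall (log2 fold -2.61 ± 0.39, adjusted p = 0.000218). Bulge cells gave 22.9, 21.7 and 100.1 CPM of Psmb9, so that the 12 months bulge stood above the basal values of the other ages while each library kept the bulge lower. The bulge fall of Psmb9 was -1.38 ± 0.37 on the log2 scale (adjusted p = 0.0181).

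Of the peptide transporter, Tap1 fell and Tap2 did not pass the test. Tap1 was 41.8, 62.7 and 81.8 CPM in the bulge and 73.3, 116 and 127 CPM in the basal epidermis, lower in the bulge of each library (log2 fold -1.03 ± 0.30, adjusted p = 0.0275). Tap2, its partner in the same transporter, was 55.1, 74.8 and 57.8 CPM in the bulge and 60.8, 64.3 and 34.7 CPM in basal cells, with a log2 fold of 0.01 ± 0.25. Tapbp, which codes for tapasin, was 94.6, 95.3 and 88.8 CPM in the bulge against 92.1, 79.3 and 82.9 CPM in basal cells, with a log2 fold of -0.12 ± 0.24. Neither gene passed the test in any of the 3 lower follicle classes, where adjusted p ranged over settings from 0.0814 to 1 for Tap2 and from 0.128 to 1 for Tapbp. Inner bulge cells gave Tap1 39.0, 61.6 and 44.7 CPM, and Tap2 74.5, 130 and 95.7 CPM. Tap1 fell there (log2 fold -1.32 ± 0.33, adjusted p = 0.0171), while Tap2 had a log2 fold of 0.61 ± 0.27 (adjusted p = 0.176).

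Nlrc5, which switches on class I genes from their promoters, rested on few UMIs. It was 3.91, 9.75 and 1.75 CPM in hair germ cells (6, 17 and 3 UMIs) and 21.4, 25.9 and 11.1 CPM in basal cells (173, 31 and 25 UMIs). The hair germ value was below the basal one in each library and the fall passed the test (log2 fold -2.08 ± 0.55, adjusted p = 0.0175). In the bulge it was 7.91, 3.62 and 16.9 CPM (28, 3 and 12 UMIs), lower than basal at P38 and 6 months and higher at 12 months, and the log2 fold of -1.29 ± 0.54 did not pass (adjusted p = 0.118).

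Counted over the list, hair germ cells had 7 of the 9 genes lower than basal cells (all but Tap2 and Tapbp), where 6.76% of 12160 tested genes were called lower. The median log2 fold of the 9 was -1.81, beside 0.03 over all genes tested. Bulge cells had 6 lower (B2m, H2-K1, H2-D1, Tap1, Psmb8 and Psmb9), where 7.72% of all genes were called lower, with a median of -1.03 beside -0.01. Inner bulge cells had the same 6 lower against a background of 5.23%, with a median of -1.22 beside -0.05. The hair germ count stayed at 6 or 7 under each of 13 alternative settings. The bulge and inner bulge counts did not. Without the 6 months library no gene was called in either class (4 and 6 at an unadjusted p under 0.05), and without the P38 library 2 and 1 were. Scaling to total UMIs, under which the median gene was 0.20 higher on the log2 scale in the bulge, left B2m and Psmb8 in the bulge and B2m, Psmb8 and Psmb9 in the inner bulge.

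**Figure D2:**
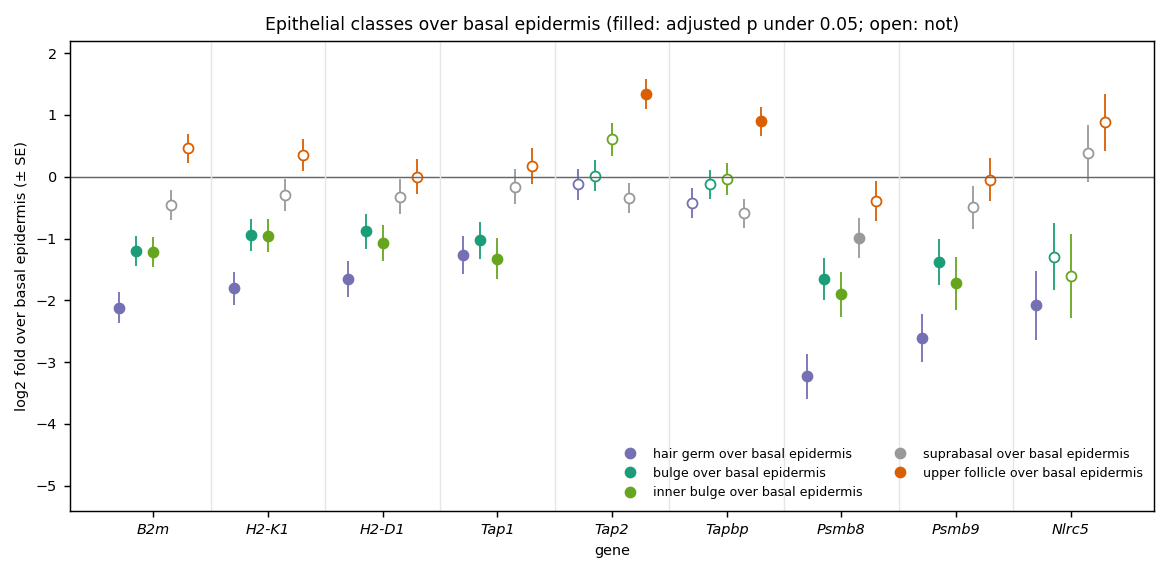
Log2 fold over basal epidermis with its SE (vertical axis) for each of the 9 genes in 5 epithelial classes, from the edgeR fit over 3 libraries. Filled points passed an adjusted p of 0.05 and open points did not, with hair germ at -3.23 for Psmb8 and upper follicle at 1.33 for Tap2 as the ends of the range.

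Bulge and inner bulge were not told apart by these genes. None of the 9 was called between them by edgeR or by DESeq2, with 1 (Tap2) at an unadjusted p under 0.05 in edgeR, where 1.26% of all genes were called. The log2 folds of inner bulge over bulge ran from -0.34 (Psmb9, SE 0.45) to 0.60 (Tap2, SE 0.27). Hair germ over bulge was negative for all 9 with a median log2 fold of -0.79, but 1 of 9 was called, Psmb8 (log2 fold -1.57 ± 0.36, adjusted p = 0.0250), where 1.32% of all genes were called lower. Without the 6 months library its call was lost and no gene was called (6 at an unadjusted p under 0.05), and the same held without the 12 months library (2 at an unadjusted p under 0.05). DESeq2 called 3 of 9. The shared direction also rested on the 12 months library, without which 6 of 9 log2 folds were negative, and Tap1 was higher in the hair germ in 2 of 3 libraries.

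The upper follicle, the Krt79 cells of the canal above the bulge, held more of all 9 genes than the bulge. B2m was 2068, 1892 and 2466 CPM there in order of age, and the fit gave a 3.16-fold rise over the bulge (log2 fold 1.66 ± 0.25, adjusted p = 6.18e-05). Tap2 was 129, 117 and 106 CPM, above all bulge values, and rose by 1.32 ± 0.25 on the log2 scale (adjusted p = 0.000579). Nlrc5 was 29.5, 29.3 and 35.4 CPM (78, 62 and 55 UMIs) and rose 4.51-fold (log2 fold 2.17 ± 0.53, adjusted p = 0.00433). All 9 were called higher and were higher in 3 of 3 libraries, where 16.7% of all genes were called higher. The smallest rise was that of H2-D1 (0.88 ± 0.28, adjusted p = 0.0238). Leaving out P38 left 4 calls, leaving out 6 months left 5, and B2m, H2-K1 and Tap2 were called under each of 13 alternatives. Scaling to total UMIs, under which the median gene had a log2 fold of -0.37, left 6 calls.

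Against the basal epidermis the upper follicle was close for most of the list. H2-K1 at 1684, 1762 and 1619.6 CPM and H2-D1 at 1723, 1024 and 2011 CPM overlapped with the basal values (log2 folds 0.35 ± 0.26 and 0.00 ± 0.28). The exceptions were Tap2 and Tapbp. Tap2 rose by 1.33 ± 0.24 (adjusted p = 0.000641), and Tapbp, at 191, 125 and 122 CPM, rose by 0.90 ± 0.23 (adjusted p = 0.00909). These 2 of 9 compare with 12.1% of all genes called higher. Tapbp lost its call without P38 or without 6 months. Suprabasal cells, the differentiating layers, had 1 of 9 called, Psmb8 at 63.5, 105 and 95 CPM (log2 fold -0.99 ± 0.32, adjusted p = 0.0461), where 8.23% of genes were called lower. That call was lost with any library left out, where no gene was called and between 1 and 3 had an unadjusted p under 0.05.

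Markers of immune cells were looked at in the same sums. In the bulge 1 of 6 general immune markers had any UMI in each library (0.847 to 4.23 CPM summed), and Ptprc, Cd52 and Laptm5 were at 0. In hair germ cells 1 or 2 of 6 had a UMI (0.651 to 2.34 CPM), and in basal cells 2 or 3 (1.78 to 5.01 CPM). In the upper follicle 2, 6 and 6 of 6 had a UMI (33.3, 8.03 and 9.65 CPM, with Cd52 giving 32.9 CPM at P38), and the Langerhans and macrophage markers summed to 8.32, 7.55 and 30.2 CPM. The immune class itself held 3976 and 2853 CPM of the general markers at 6 and 12 months. T cell markers in hair germ cells summed to 56.0, 121 and 36.8 CPM, against 8.04, 9.18 and 12.0 CPM in basal cells and 3014 and 2648 CPM in immune cells. In the hair germ 2 of 7 T cell markers had a UMI in each library, nearly all of them Trbc2 (55.4, 63.1 and 34.5 CPM) and, at 6 months, Cd3e (57.9 CPM). The part of these transcripts in the upper follicle and hair germ results was not tested.

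Single cells showed how the sums arose. Each cell was thinned to 5000 UMIs, and the UMIs of B2m, H2-K1 and H2-D1 were added. Basal cells were alike, with a median of 26, 24 and 23 such UMIs in order of age and 80% of cells between 12 and 41 at P38. The bulge had a lower median of 13.5, 9.5 and 11, with 80% of cells from 4 to 37 at P38, from 4 to 22 at 6 months and from 3 to 33.2 at 12 months. Basal cells of 6 and 12 months spanned 15 to 33.9 and 15 to 34.3 in the same way, so the bulge range was the wider at P38 and 12 months and the narrower at 6 months. The 90th percentile of the bulge lay above the basal median at P38 and 12 months and just below it at 6 months. Hair germ medians were 8, 7 and 3, and 7.77% of the hair germ cells of 12 months held none of the 3 transcripts, against 0% at P38 and 0.980% at 6 months. No basal, suprabasal or upper follicle cell of this depth was without them. Thinning left out 17, 11 and 1 basal cells, 18, 8 and 16 bulge cells and 4, 1 and 1 hair germ cells with fewer UMIs. The unthinned medians per 5000 UMIs were 25.8, 22.2 and 22.4 for basal, 13.4, 9.24 and 12.3 for bulge and 7.25, 8.08 and 3.63 for hair germ cells. Cells of 1 library are not replicates, so no test is given.

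**Figure D3:**
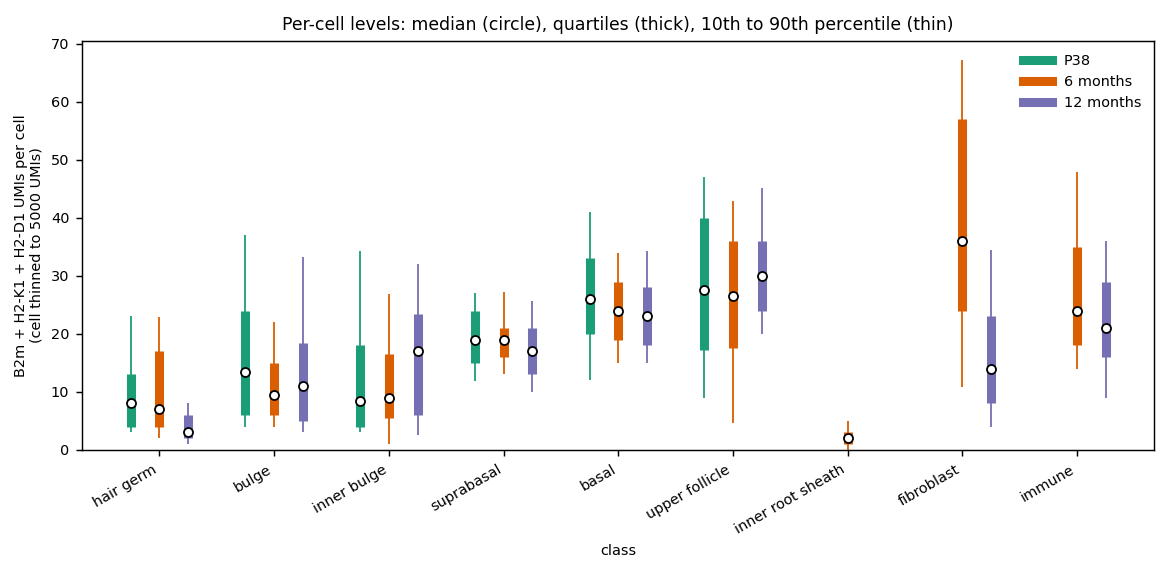
Summed UMIs of B2m, H2-K1 and H2-D1 per cell after thinning to 5000 UMIs (vertical axis), by class and library. Circles are medians over cells, thick bars the quartiles and thin lines the 10th to 90th percentile, with basal medians at 23 to 26, bulge medians at 9.5 to 13.5 and hair germ medians at 3 to 8.

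Genes next to the 9 in the pathway moved in part with them. Of the proteasome genes, the activator subunits Psme1 and Psme2 fell in the hair germ (log2 folds -0.88 and -1.34, edgeR adjusted p = 0.00310 and 0.000143), while Psmb10, the third immunoproteasome subunit, did not pass (-0.56). Psme1, Psme2 and Psmb10 were all called lower than basal cells in the bulge and inner bulge, where 7.72% and 5.23% of all genes were. In suprabasal cells 2 of these 3 were called lower, where 8.23% of all genes were. In the hair germ the constitutive subunits that immunoproteasome ones replace (Psmb5, Psmb6, Psmb7) had log2 folds of -0.30 to -0.14. They did not pass, 0 of 3 also at an unadjusted p under 0.05. Of the 5 chaperones and trimming enzymes (Calr, Canx, Pdia3, Erap1, Tapbpl), 0 were called in the hair germ by edgeR and 0 had an unadjusted p under 0.05, with log2 folds of -0.62 to 0.11. DESeq2 values were not tabulated for these neighbours. Nonclassical class I genes went down with the classical ones, 6 of 6 in the hair germ, with H2-Q7 at -3.11 (adjusted p = 6.49e-05) and H2-T22 at -2.08. In the bulge 3 of 6 fell (H2-Q4, H2-Q7 and H2-T22). Over all genes, 6.76% were called lower in the hair germ and 7.72% in the bulge. Nonclassical genes are close copies of each other and of H2-K1 and H2-D1, so these counts are uncertain in the same way.

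Of 14 regulators, 2 fell in the hair germ and 0 rose, where 6.76% of all genes were called lower and 5.75% higher. They were Ifngr1, a chain of the interferon gamma receptor (20.8, 22.4 and 8.18 CPM against 52.5, 92.7 and 106 CPM in basal cells, log2 fold -2.52, adjusted p = 0.000173), and Jak1, the kinase bound to interferon receptors (log2 fold -1.05, adjusted p = 0.00462). The same 2 were called lower in the bulge, where 7.72% of all genes were. Irf1, an interferon-induced transcription factor, was not called in either class (log2 folds -0.18 in the hair germ and -0.72 in the bulge). Lower calls among the 14 regulators were not limited to these classes. Suprabasal cells had 1 called lower than basal cells, where 8.23% of all genes were. The upper follicle had 2 called lower and 1 higher, where 12.1% of all genes were called higher. The share of all genes called lower there was not tabulated. Of 12 interferon-induced genes 10 could be tested in the hair germ, and 1 fell, Ifi27 (log2 fold -0.86, adjusted p = 0.0353). This 1 of 10 is close to the 6.76% of all genes called lower there. Of 6 immune privilege genes 4 could be tested. Cd200, a ligand that restrains myeloid cells, rose in the bulge (130.2, 98.9 and 220.0 CPM against 31.9, 10.0 and 8.46 CPM in basal cells, log2 fold 2.69, adjusted p = 0.000540) and in the hair germ (log2 fold 2.89), where 6.61% and 5.75% of all genes were called higher. This was not limited to classes low in class I, since Cd200 had a log2 fold of 3.60 in the upper follicle over basal cells. There 1 of the 4 genes was called higher, where 12.1% of all genes were. Tgfb2, a growth factor, fell in the hair germ (9, 2 and 10 UMIs, log2 fold -3.05, adjusted p = 0.00746). Cd274, which codes for PD-L1, was also called lower there, on 0, 0 and 3 UMIs against 44, 13 and 19 in basal cells. Beside these 2 of 4, 6.76% of all genes were called lower in the hair germ.

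In the upper follicle the class II genes rose with class I. Cd74, H2-Aa, H2-Ab1 and H2-Eb1 were all called higher than in the bulge, Cd74 at 28.0, 46.3 and 279 CPM against 0.282, 2.41 and 2.82 CPM (1, 2 and 2 UMIs). Immune cells held 29615 and 34346 CPM of Cd74. The rise was uneven, since H2-Aa was 2.27, 11.8 and 107 CPM and stood highest at 12 months, the library with the most Langerhans markers in this class. Of 10 interferon-induced genes tested 5 rose over the bulge, among them Gbp2, a guanylate-binding protein, at 37.5, 47.7 and 5.15 CPM (log2 fold 4.04, adjusted p = 0.00187). The 3 constitutive proteasome subunits also rose there, by 0.67 to 0.96 on the log2 scale. Over all genes, 16.7% were called higher in the upper follicle than in the bulge.

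Across the 22 epithelial class sums, B2m and H2-K1 had the closest levels (Pearson r = 0.94 of log2(CPM + 1)), followed by Tap2 and Tapbp (0.92) and by Psmb8 and Psmb9 (0.91). The lowest r was that of Tap2 and Psmb9 (0.32). These sums share libraries and totals and the values are a description. Outside the lists, the genes whose levels were most like the mean of the 9 were Eppk1 (r = 0.81), Ccl27a (0.79) and Stap2 (0.78), among 5438 genes with at least 20 CPM on average. Eppk1 codes for epiplakin, a keratin-binding protein, and at P38 stood at 146 CPM in the upper follicle, 96.3 CPM in the bulge, 93.7 CPM in basal cells and 33.2 CPM in hair germ cells. Ccl27a codes for the keratinocyte chemokine that draws T cells to skin, and its symbol occurs on more than one row of the tables, so its value is uncertain.

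Immune cells and fibroblasts were compared with basal cells at 6 and 12 months. B2m was 2205 and 1090.0 CPM in immune cells and 3162 and 1189 CPM in fibroblasts, against 1725 and 1733 CPM in basal cells, and neither class was called (edgeR log2 folds -0.18 ± 0.38 and 0.07 ± 0.38). Tap1 was lower in both. It stood at 54.3 and 22.6 CPM in immune cells (log2 fold -1.75 ± 0.46, adjusted p = 0.0117) and at 56.8 and 33.4 CPM in fibroblasts (log2 fold -1.59 ± 0.44, adjusted p = 0.0151). It was the 1 gene of 9 called in immune cells, where 11.8% of 9535 genes were called lower. Fibroblasts had 3 lower (Tap1, Psmb9 and Nlrc5) against 11.1% of genes, and 1 higher, Tapbp at 366 and 209.7 CPM (log2 fold 1.71 ± 0.42, adjusted p = 0.00715), against 17.2%. With 2 libraries no test can be made without one of them.

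The inner root sheath, the layer that guides the growing hair, was measured at 6 months alone. Its B2m was 187 CPM (311 UMIs), H2-K1 279.7 CPM, H2-D1 274 CPM and Psmb8 9.63 CPM, each the lowest of all classes of that library. Among its 81 cells with at least 5000 UMIs the median was 2 UMIs of B2m, H2-K1 and H2-D1 together, and 14.8% of cells held none. The other 223 cells were too shallow to enter, and the median over all 304 cells without thinning was 9.98 per 5000 UMIs, so the value depends on which cells are used. Of the 304 cells 218 held fewer than 1000 genes, and 1 library allows no test.

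The ratio of H2-K1 to H2-D1 UMIs was higher at 6 months than at the other ages in every class measured in all 3 libraries, and it also differed between classes of a library. It was below 1 in each of 7 classes at P38 (median 0.749, range 0.625 to 0.977) and in each of 11 classes at 12 months (median 0.650, range 0.369 to 0.829). At 6 months it was above 1 in 8 of 10 classes (median 1.27, range 0.756 to 1.72), the exceptions being fibroblasts (0.957) and immune cells. In basal cells the ratio was 0.749 at P38, 1.34 at 6 months and 0.645 at 12 months, with exact 95% intervals of 0.731 to 0.766, 1.25 to 1.43 and 0.614 to 0.678. Immune cells had the lowest ratio of their library both times, 0.756 and 0.369. Reads shared between class I genes could move this ratio, which was not tested. With 1 library per age no test was possible, and strain, sex and age cannot be told apart.

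**Figure D4:**
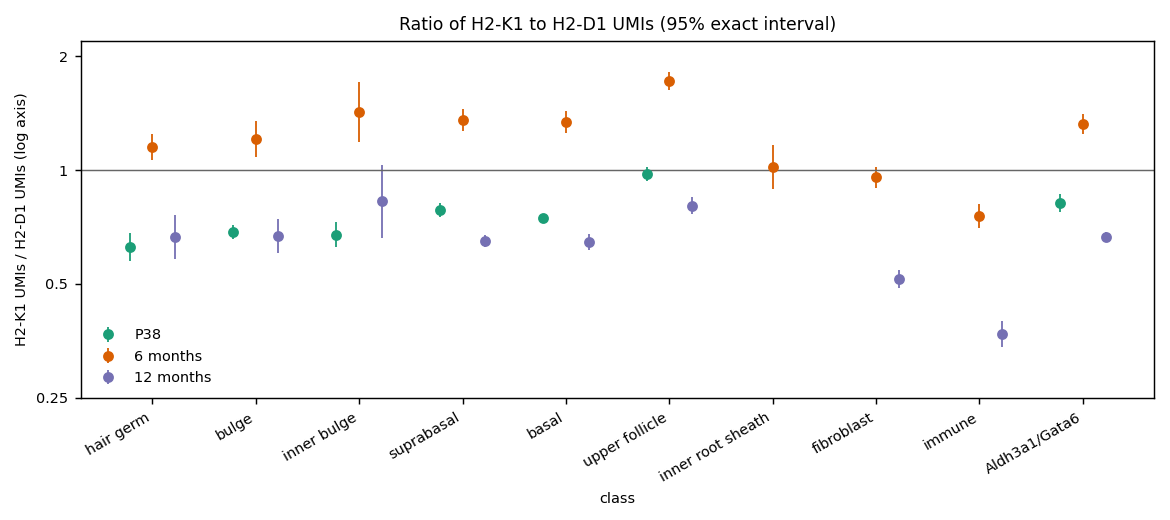
Ratio of H2-K1 to H2-D1 UMIs (log axis) by class and library with exact 95% intervals that cover counting error only. The 6 months points of the 6 epithelial classes lie between 1.15 and 1.72, and those of P38 and 12 months between 0.625 and 0.977.

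Between ages each class has 1 library per side, so the values below carry counting intervals and no test. The 3 comparisons share libraries. Over 6 epithelial classes and 9 genes, 11 of 54 values differed by more than 2-fold between 12 months and P38, 2 of 54 between 6 months and P38 and 12 of 54 between 12 and 6 months. Over all pairs of gene and class with at least 10 counts the shares past 2-fold were 27.4%, 20.8% and 22.1%. These pairs had 0.5 added to each count and the 54 values did not. Ratios of genes with few counts scatter more, and B2m, H2-K1 and H2-D1 had many. The list is therefore not ranked against these shares, and the same limit holds for the shares of all genes below. Of the values of the 9 genes past 2-fold, the hair germ held 6, 1 and 7. At 12 months B2m, H2-K1, H2-D1, Tap1, Tap2, Tapbp and Nlrc5 were all more than 2-fold lower in hair germ cells than at 6 months, 7 of 9 genes where 19.7% of all genes were that much lower. H2-K1 had a log2 ratio of -1.90 (95% interval -2.08 to -1.74) and Tapbp one of -1.24 (-1.68 to -0.81). Against P38 5 of 9 were more than 2-fold lower, where 16.5% of all genes were, and Psmb9 was more than 2-fold higher (log2 ratio 1.22, 0.38 to 2.12), where 13.8% were. The median log2 ratio of the 9 genes was -1.16 against P38, beside -0.04 over all genes, and -1.21 against 6 months, beside -0.23.

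Hair germ cells of 12 months also differed in other genes, which were chosen after their values had been seen. Krt14 was 7424, 4712 and 2058 CPM in order of age, Krt5 5524, 3780 and 1381 CPM and Sox9 1303, 804 and 186 CPM. Cux1, a transcription factor of the inner root sheath, was 26.7, 33.8 and 208 CPM and Ptch1, the Hedgehog receptor, 13.7, 25.2 and 153 CPM. Lgr5, on which these cells were gated, was 315, 234 and 193 CPM. The part of these differences in the class I values was not tested. Without the 12 months library the hair germ kept 7 of 9 genes called lower than in basal cells.

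Psmb9 was higher at 12 months than at P38 in all 6 epithelial classes, with log2 ratios from 0.61 in suprabasal cells to 2.13 in the bulge (95% interval 1.65 to 2.61). In the bulge 81 UMIs at P38, 18 at 6 months and 71 at 12 months gave 22.9, 21.7 and 100.1 CPM. More than 2-fold higher values were common among all genes in that comparison (18.0% in the bulge). In the upper follicle Psmb9 was at 53.7 CPM at P38 and 147 CPM at 12 months. In fibroblasts and immune cells Psmb9 was lower at 12 than at 6 months (log2 ratios -0.52 and -0.98). B2m hardly moved in the epidermis, with log2 ratios of 12 months over P38 of 0.01 in basal cells (-0.04 to 0.06) and -0.03 in suprabasal cells (-0.09 to 0.03).

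Outside the epithelium B2m and H2-K1 were lower at 12 than at 6 months in fibroblasts (log2 ratios -1.41 and -1.56, where 13.6% of genes were more than 2-fold lower). In immune cells B2m, Tap1 and Nlrc5 were more than 2-fold lower (3 of 9 genes, against 13.2% of all genes), and H2-D1 was higher at 2503 against 2095 CPM. Immune cells at 6 months were 59 T cells and 56 Langerhans cells and macrophages, and at 12 months 39 and 80.

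**Figure D5:**
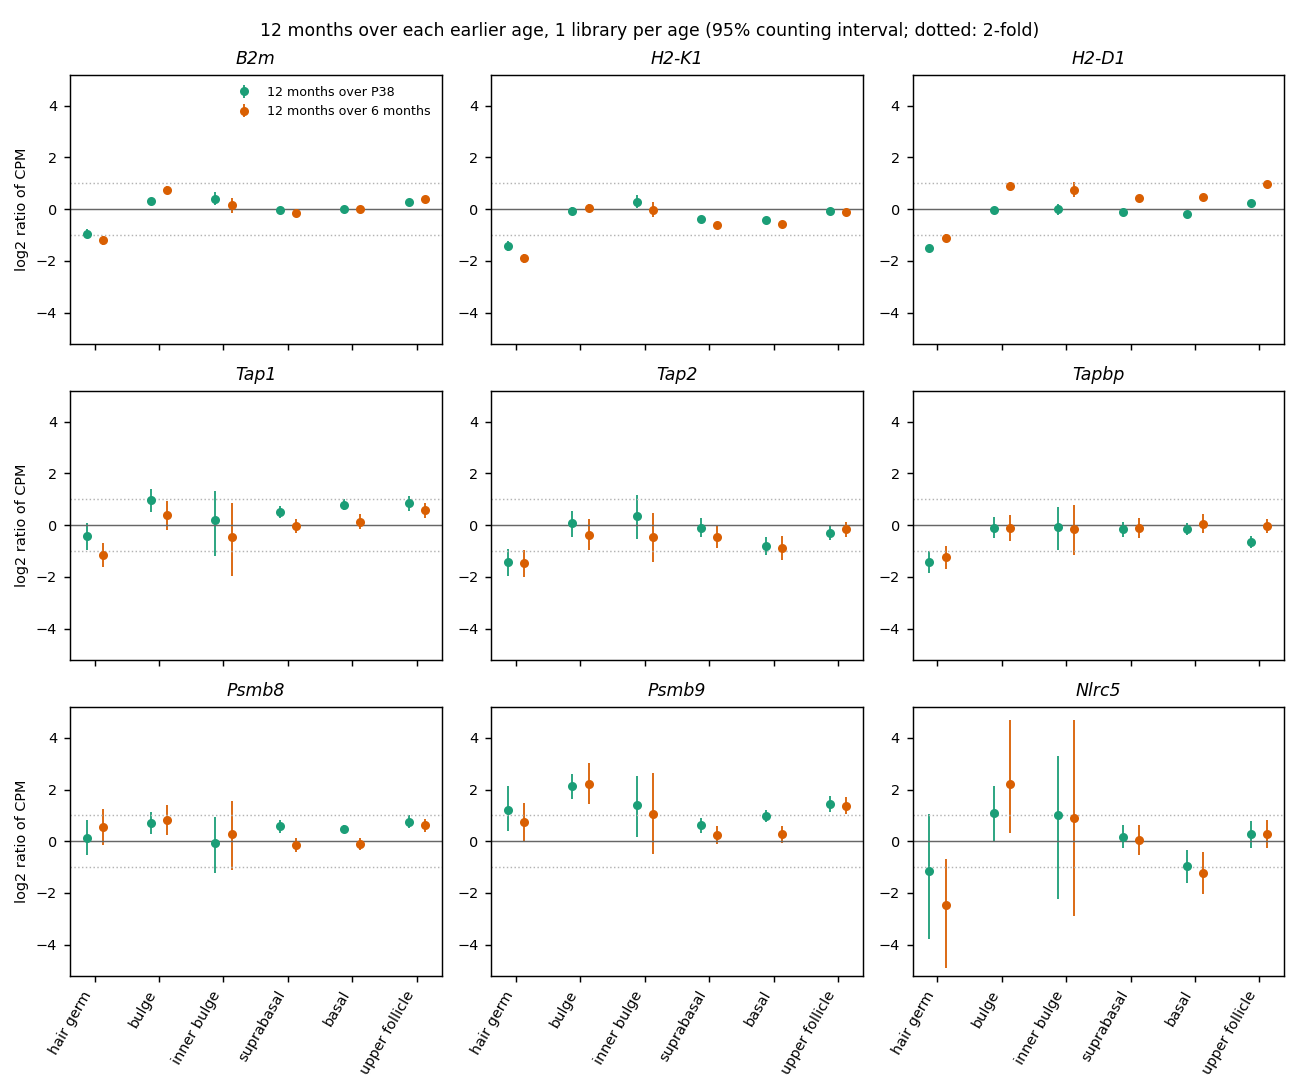
Log2 ratio of CPM at 12 months over P38 (green) and over 6 months (orange) for each gene in 6 epithelial classes, with exact 95% counting intervals and dotted lines at 2-fold. Hair germ values lie below the line for H2-K1, Tap2 and Tapbp in both comparisons, and Psmb9 lies above 0 in all 6 classes.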

How the data were processed

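Single-cell RNA was measured in 3 libraries of mouse back skin (10x 3ʹ v3), 1 per age. The authors deposited unnormalized UMI counts for each gene in each barcode, made with Cell Ranger 6.1.2 per the submitters' processing notes and the P38 file header, and 6.0.0 per the headers of the other files, on mm10. A cell was kept if its gene number lay above 200 and below 5000 and its mitochondrial share was below 15%. A class required a marker score above 0.5, a margin of 0.25 over the next class, at least 3 detected markers (2 for a list of 3) and at least 20 cells per library. The thresholds of this gate were set after seeing the data, and the 9 genes and the lists of related genes were chosen with earlier results of these data known.

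Counts were summed by class and library and tested with edgeR 4.0.16 (R 4.3.3) by its quasi-likelihood test with Benjamini-Hochberg adjustment over all tested genes, at an adjusted p of 0.05, with TMM scaling and the library as a block, because the classes of a library come from the same mice and run. The block takes out the shift of each library, so p-values measure how far differences between classes varied from library to library, estimated over all class sums. The libraries differ in age, sex and hair cycle stage, which enter this spread. Whether the samples behind a library were 1 or several mice is not stated, so it is not a spread between mice. All adjusted p-values in the text come from this test. DESeq2 1.42.0 was an alternative. On simulated counts for bulge over basal epidermis (10790 genes), the fit recovered 36% of 100 genes changed by a log2 fold of 1 and 96% of 100 changed by 2. The simulation gave every gene the same spread, left out library differences and changed only genes well above the lowest counts. These rates therefore check the fit and do not give its power on the real counts. Ages were compared by the ratio of summed counts with exact 95% intervals, which cover counting error only, and all genes with at least 10 counts gave the background (0.5 added to each count). Python 3.11.15, scanpy 1.11.5 and scipy 1.17.1 were used. Genes named outside the 9 came from the lists of 54 related genes, from the 10 most alike by Pearson correlation, or, where stated, after their values were seen. Total UMIs of kept cells were 34646663, 24698719 and 38910431 at P38, 6 months and 12 months.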

Additional observations from a re-analysis of the deposited data

Results flagged for a closer look

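Flagged here are 6 values whose change with age had opposite signs in different epithelial classes. They are not all such values, since B2m from P38 to 12 months also rose in the bulge and fell in the hair germ. There is 1 library per age and the difference between classes was not tested. Comparing 12 with 6 months, B2m had a log2 ratio of 0.74 in the bulge and -1.21 in the hair germ, a difference of 1.95. H2-D1 had 0.97 in the upper follicle and -1.12 in the hair germ, a difference of 2.09. Over all kept cells H2-D1 stood at 988 CPM at 6 months and 1560 CPM at 12 months. The part of this library-wide difference in the value was not tested. Tap1 had 0.57 in the upper follicle and -1.14 in the hair germ, a difference of 1.71. Nlrc5 had 2.23 in the bulge and -2.47 in the hair germ, a difference of 4.70, on 3 and 12 UMIs in the bulge and 17 and 3 UMIs in the hair germ.

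Comparing 12 months with P38, H2-K1 had a log2 ratio of 0.29 in the inner bulge and -1.43 in the hair germ, a difference of 1.72. The inner bulge of 12 months was 22 cells and held 1117 CPM of Krt79, a marker of the upper follicle, against 33.4 CPM at P38 and 13.7 CPM at 6 months. The part of these transcripts in the value was not tested. H2-D1 had 0.22 in the upper follicle and -1.52 in the hair germ, a difference of 1.75. All 6 flagged values involve the hair germ of 12 months, in which Krt14 and Sox9 were also lower than at the other ages.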

How the results depend on the processing

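No called value changed sign under any alternative, and 16 of 53 values for single genes that were not called took both signs, among them Tap1, Tap2 and Nlrc5 in hair germ over bulge. Of the values for single genes, 970 kept their side of the threshold, 74 lost it, 17 gained it and 36 moved. For bulge over basal epidermis, 6 genes were called, but 2 with total UMIs, 2 without the replicate block, 3 with no upper limit on genes, and 0 to 6 leaving out 1 library. For inner bulge over basal epidermis, 6 were called, but 3 with total UMIs, 3 without the replicate block, and 0 to 6 leaving out 1 library. For upper follicle over basal epidermis, 2 were called, but 1 without the replicate block, 4 with only the 2 classes, and 1 to 2 leaving out 1 library. For suprabasal over basal epidermis, 1 was called, but 0 without the replicate block, from clusters, with no upper limit or with a stricter gate, 5 with only the 2 classes, and 0 with any library left out. For hair germ over bulge, 1 was called, but 3 with DESeq2 or no low-count filter, 2 from clusters, with at least 1000 genes per cell, no upper limit or a stricter gate, 0 without the replicate block, and 0 to 1 leaving out 1 library. For upper follicle over bulge, 9 were called, but 6 with total UMIs, 7 without the replicate block, 8 with no upper limit on genes, and 4 to 9 leaving out 1 library. The cause of these changes was not tested.

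Mean B2m in basal cells was 1751 CPM from clusters, 1749 with no upper limit, 1752 with a stricter gate and 1697 as a mean over cells, and in suprabasal cells 1293 CPM from clusters. Values past 2-fold between 6 months and P38 numbered 2, but 0 from clusters, 1 with no upper limit, 4 with a stricter gate and 4 as a mean over cells. Leaving out cells with a shared barcode, an alternative chosen after seeing the data, changed no count of calls by over 1.5 times. The inner root sheath was not tested, clusters gave the inner bulge at P38 only, and leaving out a library was not run for immune cells and fibroblasts, which leaves no residual degrees of freedom.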

Other observations

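Some classes entered no comparison. Endothelial cells reached 20 cells at 12 months only (29 cells, beside 16 at 6 months). At 12 months they held 3830 CPM of H2-D1, 2340 CPM of B2m, 348 CPM of Psmb8 and 154 CPM of Psmb9, of which H2-D1 and Psmb8 were the highest of any class of that library. Dermal papilla cells of 12 months (120 cells, beside 14 at 6 months) held 671 CPM of B2m and 724 CPM of H2-K1, below the bulge of the same library. The follicle cells marked by Aldh3a1 and Gata6 (85, 99 and 471 cells) were close to the upper follicle, with B2m at 2055, 1848 and 2133 CPM in order of age. Within the immune class, T cells held 2249 and 767 CPM of B2m at 6 and 12 months, and Langerhans cells and macrophages 2182 and 1176 CPM. H2-D1 stood at 2949 and 1764 CPM in T cells, and at 1639 and 2700 CPM in Langerhans cells and macrophages.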
